A study of Mus musculus with 18 samples.

Results

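Expression of the joint genes Gdf5, Gdf6, Nog, Wnt4, Wnt9a, Erg and Enpp2 was followed through early mouse hindlimb development with and without the hindlimb transcription factor Pitx1. They were chosen by symbol and are 7 of the 23900 genes kept from the deposited tables. The data are RNA sequencing of embryos of strain C57BL/6, either wild type or Pitx1-/-, a loss-of-function genotype whose allele the labels do not describe further. At embryonic day 9.5 (E9.5) the tissue was the field of the future hindlimb together with trunk, and at E11.5 and E12.5 it was the hindlimb. There were 6 groups of 3 libraries. The labels do not say whether libraries of a group came from separate embryos, litters or pools, so the tests weigh differences against a spread that may be technical.

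A synovial joint begins as the interzone, a band of flattened cells that appears across the cartilage model of the skeleton and gives up the cartilage programme. Gdf5, a secreted growth factor of the BMP family, is its classical marker, and mice without it lack several limb joints. Wnt ligands hold back cartilage in the band, noggin shields it from BMP signals that would otherwise turn it into cartilage, and the ETS factor Erg marks cells that will become articular cartilage. Cells of the interzone are few among the cells of a limb. In bulk tissue, fewer cells of a type and less RNA per cell cannot be told apart.

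Library totals ran from 14312425 to 60465013 fragments, and at E9.5 all 3 knockout libraries were shallower than all 3 wild-type ones. Mean RPKM of Pitx1 in the knockout was 41.1% of the wild type in the E9.5 tissue, 16.8% in the E11.5 limb and 13.2% in the E12.5 limb, with no overlap between genotypes. RPKM is the authors' level, scaled to transcript length and library size. Pitx1 fell at E11.5 (log2 fold change -2.57 ± 0.13, where ± is the standard error, SE, of a fold change throughout, adjusted p = 6.39e-05, edgeR quasi-likelihood test). At E9.5 it also fell (-1.29 ± 0.13, adjusted p = 0.0226, edgeR), but the call was lost without any 1 of the 3 wild-type libraries or of knockout replicates 1 and 3 (adjusted p from 0.0721 to 0.155), with limma (0.0611 and 0.0561) and in a fit of all 18 libraries (0.242). At E12.5 the log2 fold change of -2.92 ± 0.40 did not pass (adjusted p = 0.125, edgeR), but fell by 3.24 without wild-type replicate 3 (adjusted p = 3.09e-06, edgeR). That library stood apart: wild-type replicate 3 held 44.6 RPKM of Pitx1 against 114 and 112 in the other wild-type libraries. The same library had the highest summed RPKM of 11 surface ectoderm markers (435, against 235 and 313) and the lowest sum of 9 limb mesenchyme markers, Pitx1 included (622, against 756 and 778), among the wild-type libraries of E12.5. It was also the highest of them for 6 of the 7 joint genes, so their E12.5 fold changes were also computed without it. The E12.5 counts and medians of other gene lists, the DESeq2 calls and the profile likeness below include it. So do the summed RPKM, percentages of such sums, CPM orders and library overlaps.

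**Figure D1:**
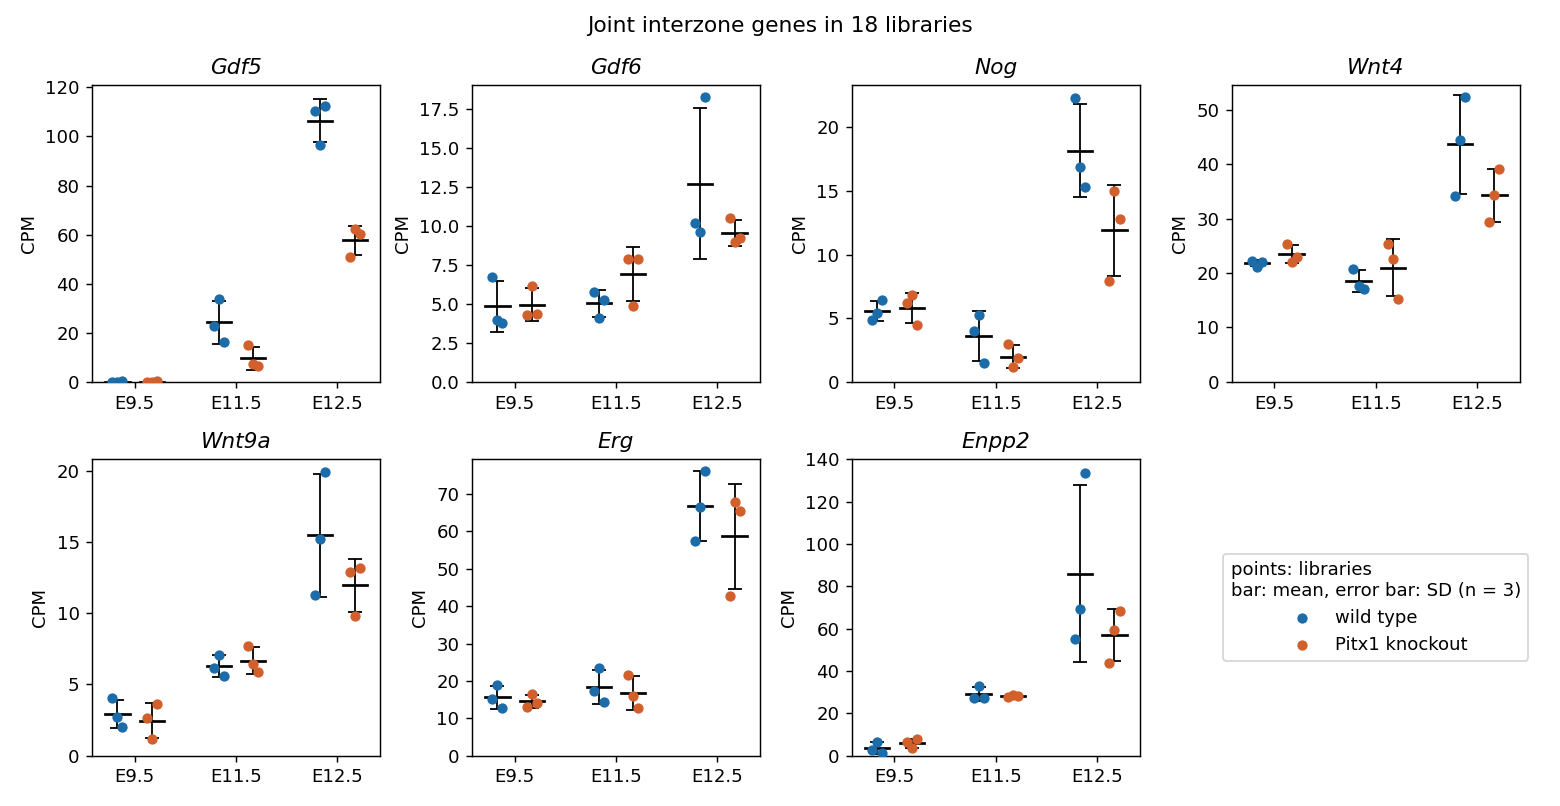
CPM, fragments scaled to library size after TMM normalization, for each joint gene (y axis, linear, from 0) by stage (x axis); each point is a library, the thick bar is the mean and the error bar the SD of 3 libraries. Gdf5 is near 0 at E9.5 and separates the genotypes at E11.5 and E12.5, while for the other genes apart from Nog at E12.5 the genotypes overlap at every stage; wild-type replicate 3 at E12.5 is the high point for Enpp2 and Gdf6.

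Between E11.5 and E12.5 all 7 joint genes rose in the wild-type hindlimb, from 2.36-fold for Wnt4 to 5.01-fold for Nog, and 6 of them rose in the knockout hindlimb. Their median log2 change was 1.56 in wild-type limbs and 1.01 in the knockout, against 0.00020 and 0.012 over all 15305 genes tested. A rise past the threshold, an adjusted p under 0.05 in an edgeR fit of the 12 hindlimb libraries, was found for 17% of all genes in wild-type limbs and 20.4% in knockout limbs. Falls were found for 16.3% and 21.1%, which makes 33.3% and 41.4% of genes changed in either direction. For all 7 joint genes, and in both genotypes, every E12.5 library lay above every E11.5 library, as it did for 23.8% of all genes in wild-type and 29.3% in knockout limbs. The 7 wild-type rises passed under all 19 alternatives run, the leave-one-out fits included. Each stage came as a table of its own, so stage and anything else that differed between the tables cannot be told apart.

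With loss of Pitx1, Gdf5 was the joint gene with the lowest relative level, at 39.3% of the wild-type mean RPKM at E11.5 and 54.0% at E12.5, and at both stages its 3 knockout libraries lay below all 3 wild-type ones. None of the 7 genes passed the adjusted threshold between genotypes at any stage in the 6-library fits. The share of all genes that passed was 0.0218% at E9.5, 1.94% at E11.5 and 0.0138% at E12.5, so these fits called hardly any gene at E9.5 and E12.5. The E11.5 calls were 0.933% of genes higher and 1.01% lower. At unadjusted p under 0.05 the shares were 4.11%, 22.2% and 15.1%, and 0, 1 (Gdf5) and 2 (Gdf5 and Nog) of the joint genes were among them. DESeq2 called none of the joint genes at E9.5 and E11.5 and 1, Gdf5, at E12.5. Over all genes DESeq2 called more than edgeR: 19 of 14447 at E9.5, 1278 of 14304 at E11.5 and 445 of 15523 at E12.5. Every knockout library lay below, or every one above, the wild type for 4.58% and 4.71% of genes at E9.5, 14% and 13.7% at E11.5 and 10.4% and 11.4% at E12.5. Among the joint genes this held for none at E9.5, for Gdf5 (below) at E11.5 and for Gdf5 and Nog (below) at E12.5.

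Gdf5 and Gdf6 are the BMP-family ligands of the group. Gdf5 was almost absent from the hindlimb field, with 3, 0 and 5 fragments in the wild-type libraries of E9.5 and 1, 2 and 4 in the knockout ones, all under 0.12 RPKM. The count of 0 in wild-type replicate 2 allows up to 0.146 CPM before TMM scaling (3 counts, counting error only), and the gene was too low for a test at that stage. At E11.5 it measured 9.99, 14.9 and 7.25 RPKM in wild-type libraries and 6.55, 3.21 and 2.87 RPKM in the knockout. The genotypes did not overlap, but the highest knockout library lay close under the lowest wild-type one. The log2 fold change was -1.34 ± 0.42 SE (adjusted p = 0.146, edgeR). Adjusted p was 0.0322 without knockout replicate 1, the library with the most Gdf5, and 0.0224 in a fit of all 18 libraries, while the other 13 alternatives did not pass.

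At E12.5 Gdf5 had reached 51.0, 44.7 and 51.6 RPKM in wild-type libraries and 23.3, 28.6 and 27.6 RPKM in the knockout. Here the groups were well apart, with a gap between the highest knockout and the lowest wild-type library that was wider than the range within either genotype. The mean of the wild type was 49.1 ± 3.84 RPKM and that of the knockout 26.5 ± 2.84 (SD, n = 3 each). In the test the log2 fold change was -0.89 ± 0.094 SE (adjusted p = 0.0540, edgeR), the third smallest p of 14475 genes, of which 2 passed. Adjusted p lay between 9.09e-13 with DESeq2 and 0.302 in the fit of all 18 libraries, and 4 of 15 alternatives put it under 0.05. Among these was the fit without wild-type replicate 3 (-0.85, adjusted p = 0.0375, edgeR), so the difference did not rest on the library that stood apart.

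The order of Gdf5 levels in CPM (fragments scaled to library size) over the 6 groups was E12.5 wild type (106 ± 8.77), E12.5 knockout (57.6 ± 6.07), E11.5 wild type (24.3 ± 8.80), E11.5 knockout (9.57 ± 4.61) and then both E9.5 groups (0.154 ± 0.117 in the knockout and 0.0986 ± 0.109 in the wild type). Neighbours in that order did not overlap, except the E9.5 groups. From E11.5 to E12.5 the gene rose 4.36-fold in the wild type (log2 2.12 ± 0.33, adjusted p = 0.00152, edgeR) and 5.92-fold in the knockout (2.57 ± 0.34, adjusted p = 0.000431, edgeR). The difference between those rises did not pass (0.44 ± 0.45, adjusted p = 0.772, edgeR). It was 0.12 without E11.5 wild-type replicate 2 and 0.92 without E11.5 knockout replicate 1, the E11.5 libraries with the most Gdf5 of their genotypes.

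Gdf6, a close relative of Gdf5 that acts in wrist, ankle and skull joints, was less abundant per length than Gdf5 in the E11.5 and E12.5 hindlimb. It measured 1.79, 1.06 and 1.01 RPKM in wild-type libraries and 1.14, 1.65 and 1.17 in the knockout at E9.5, with the ranges interleaved. At E11.5 the wild-type values were 1.61, 1.14 and 1.47 RPKM and the knockout values 2.20, 1.36 and 2.21. Gdf6 was the joint gene with the highest knockout to wild-type ratio there, 136% (log2 0.45 ± 0.23, adjusted p = 0.287, edgeR), again with overlap. At E12.5 they were 2.99, 2.84 and 5.33 RPKM in wild-type libraries against 3.05, 2.62 and 2.69 in the knockout (-0.42 ± 0.25, adjusted p = 0.445, edgeR). Wild-type replicate 3 was high, and the fold change was -0.064 without it. In CPM the E12.5 groups (12.7 ± 4.84 for wild type and 9.56 ± 0.822 for knockout, which overlapped) lay above 1 overlapping set of the other 4 groups, from 6.90 ± 1.73 in the E11.5 knockout to 4.86 ± 1.65 in the E9.5 wild type.

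Gdf6 rose 2.52-fold from E11.5 to E12.5 in the wild type (log2 1.34 ± 0.25, adjusted p = 0.00203, edgeR), or by log2 0.98 without wild-type replicate 3. In the knockout its change of 0.46 ± 0.25 did not pass (adjusted p = 0.161, edgeR), which made it the 1 joint gene not called there. The test of the difference between the genotypes' changes gave -0.88 ± 0.35 (adjusted p = 0.432, edgeR), so a difference in the timing of Gdf6 was not established. Only 0.00653% of all genes, a single gene and no joint gene, passed that test, and 10.3% had an unadjusted p under 0.05, Gdf6 alone among the joint genes. DESeq2 passed 113 genes there and no joint gene.

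Nog encodes noggin, the secreted BMP inhibitor without which joints fail to form. In the hindlimb field and trunk of E9.5 it measured 2.49, 2.78 and 3.30 RPKM in wild-type libraries and 3.14, 3.51 and 2.31 in the knockout. Notochord, which expresses noggin, was present in that tissue: the summed RPKM of 5 notochord markers was 21.0 to 45.1 in wild-type libraries and 21.2 to 38.4 in the knockout, and its part in these Nog levels was not tested. At E11.5 the sum was 1.28 to 4.45 and 0.889 to 4.21, and at E12.5 it was between 0.127 and 0.427 in all 6 libraries. Of these 5 markers, Noto and Foxa1 were under 0.1 RPKM in every hindlimb library, so the hindlimb sums do not by themselves show notochord. One of the 5, the notochord factor T (brachyury), fell in the E11.5 knockout (-2.22 ± 0.46, adjusted p = 0.0440, edgeR), a call lost without each library other than wild-type replicate 3.

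In the E11.5 hindlimb Nog stood at 2.18, 2.87 and 0.808 RPKM in wild-type libraries and 1.59, 0.640 and 1.004 in the knockout. The genotypes overlapped, with the knockout at 55.3% of the wild-type mean (log2 -0.85 ± 0.48, adjusted p = 0.335, edgeR). The fold change was -0.47 without wild-type replicate 2, the highest library, and -1.25 without knockout replicate 1. At E12.5 the values were 12.6, 9.63 and 8.65 RPKM in wild-type libraries and 4.49, 8.49 and 7.24 in the knockout. No knockout library reached the lowest wild-type one, although the closest pair was 8.49 against 8.65. The wild type averaged 10.3 ± 2.08 RPKM and the knockout 6.74 ± 2.05 (SD, n = 3 each), or 65.3% of the wild type. The log2 fold change was -0.61 ± 0.24 (adjusted p = 0.314, edgeR), and -0.39 without knockout replicate 1, the lowest library.

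Nog had the largest wild-type rise of the group, 5.01-fold (log2 2.33 ± 0.44, adjusted p = 0.00310, edgeR). Its knockout rise was 5.89-fold (2.56 ± 0.45, adjusted p = 0.00135, edgeR). The difference between them, 0.23 ± 0.61, did not pass (adjusted p = 0.918, edgeR). In CPM, E12.5 wild type (18.2 ± 3.64) and E12.5 knockout (11.9 ± 3.60) came first, followed without overlap by the E9.5 groups (5.81 ± 1.21 and 5.56 ± 0.787) and then the E11.5 groups (3.60 ± 1.93 and 1.996 ± 0.888), whose neighbours overlapped. Gdf5 and Nog, ligand and inhibitor, were thus the joint genes with the largest rises in both genotypes and the only ones whose genotypes did not overlap at E12.5.

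**Figure D2:**
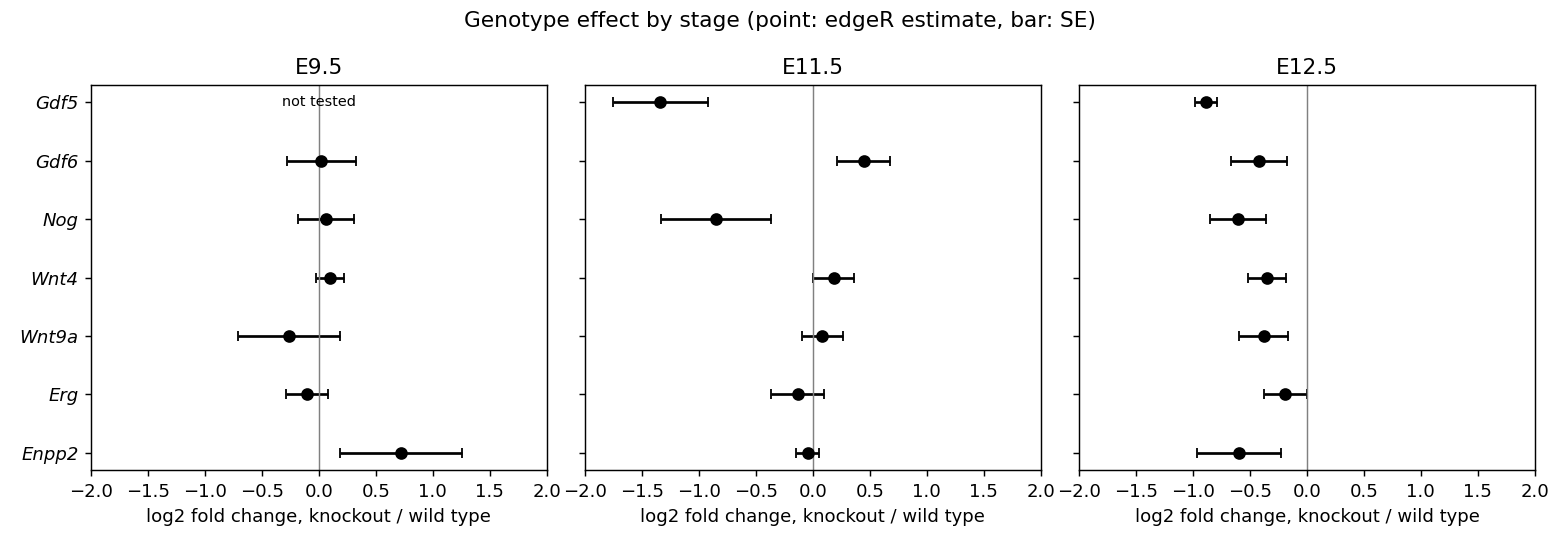
Log2 fold change of knockout over wild type (x axis) for each joint gene (rows), with a panel for each of the 3 stages; points are edgeR estimates and bars are 1 SE. At E12.5 all 7 points lie below 0, with Gdf5 at -0.89 having the shortest bar; at E11.5 only Gdf5 and Nog lie below -0.5.

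Wnt4 and Wnt9a are the Wnt ligands of the interzone, where they act against cartilage formation. RefSeq promoters of build GRCm38.p6 were at hand for 3 of the 7 genes, and those of the Wnt genes, whose profiles over the libraries were close to each other, are shown as the 250 bases before the annotated start, 5′ to 3′ on the plus strand. Capitals mark the GC box GGGCGG or its reverse complement CCGCCC, overlapping matches included. The regions are chr4:137277385-137277634 for Wnt4 and chr11:59306680-59306929 for Wnt9a.

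Wnt4: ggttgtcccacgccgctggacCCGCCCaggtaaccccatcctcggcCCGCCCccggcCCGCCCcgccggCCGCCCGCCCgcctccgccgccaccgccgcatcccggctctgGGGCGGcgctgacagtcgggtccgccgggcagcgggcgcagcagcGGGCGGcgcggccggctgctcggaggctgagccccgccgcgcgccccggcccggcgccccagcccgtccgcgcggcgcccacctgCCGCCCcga

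Wnt9a: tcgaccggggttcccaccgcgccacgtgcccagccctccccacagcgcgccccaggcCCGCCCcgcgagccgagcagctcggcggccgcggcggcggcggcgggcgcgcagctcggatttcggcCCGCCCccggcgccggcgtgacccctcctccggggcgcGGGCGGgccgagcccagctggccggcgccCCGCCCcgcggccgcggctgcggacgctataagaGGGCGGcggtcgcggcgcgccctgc

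Both windows were rich in G and C, with 8 GC boxes and 85.2% G and C for Wnt4 and 5 GC boxes and 84.4% for Wnt9a. The median promoter of the table had 52.4% G and C, and 32.7% of 32851 promoters held at least 1 GC box on either strand. The letters TAATCC or GGATTA, the core bound by bicoid-type homeodomains such as that of Pitx1, were in none of the 5 promoters of Wnt4, Wnt9a and Erg and in 6.25% of all promoters. This says only that these letters are not in those windows.

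Wnt4 was steady in the E9.5 tissue, with 5.42, 5.16 and 5.39 RPKM in wild-type libraries and 6.12, 5.42 and 5.64 in the knockout. Surface ectoderm and the forming kidney, where Wnt4 is also expressed, were both measurable in that tissue. The summed RPKM of 11 surface ectoderm markers was 155 to 308 and that of 7 kidney and intermediate mesoderm markers 14.3 to 21.3 over its 6 libraries, and their part was not tested. At E11.5 Wnt4 measured 5.35, 4.53 and 4.36 RPKM in wild-type libraries and 6.48, 5.76 and 3.89 in the knockout, and at E12.5 9.21, 11.99 and 13.99 against 7.87, 9.23 and 10.5. The genotypes overlapped at each stage, with log2 fold changes of 0.10 ± 0.12, 0.18 ± 0.18 and -0.35 ± 0.17 (adjusted p = 0.999, 0.585 and 0.363, edgeR).

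Wnt9a was the lower of the pair at every stage. It measured 1.14, 0.774 and 0.578 RPKM in wild-type libraries and 0.741, 0.331 and 1.03 in the knockout at E9.5. At E11.5 it had 1.84, 2.12 and 1.68 RPKM in wild-type libraries and 2.30, 1.92 and 1.75 in the knockout, and at E12.5 3.53, 4.77 and 6.19 against 4.003, 3.06 and 4.12. Again the genotypes overlapped throughout, and the log2 fold changes were -0.26 ± 0.45, 0.083 ± 0.18 and -0.38 ± 0.21 (adjusted p = 0.999, 0.823 and 0.431, edgeR).

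Over the day from E11.5 to E12.5 Wnt4 rose 2.36-fold in the wild type (log2 1.24 ± 0.20, adjusted p = 0.00102, edgeR) and 1.61-fold in the knockout (0.69 ± 0.19, adjusted p = 0.0136, edgeR). The knockout call for Wnt4 was lost without E12.5 knockout replicate 3 (adjusted p = 0.0597). Wnt9a rose 2.46-fold (1.30 ± 0.20, adjusted p = 0.000793, edgeR) and 1.77-fold (0.82 ± 0.20, adjusted p = 0.00559, edgeR). The differences between the genotypes' rises, -0.55 ± 0.27 and -0.47 ± 0.28, did not pass (adjusted p = 0.504 and 0.574, edgeR). Surface ectoderm markers moved too: 6 of 11 rose and 2 fell in the wild type (median log2 0.37) and 3 rose and 4 fell in the knockout (median -0.14). Their summed RPKM in the wild type was 156 to 186 at E11.5 and 235 to 435 at E12.5. At E12.5 it put the 3 wild-type libraries in the same order as Wnt4 and Wnt9a did, an order that Erg and Enpp2 shared. In the E12.5 knockout the sums were 259, 311 and 302, an order that neither Wnt gene had. At E11.5 the order of the sums was that of both Wnt genes in the knockout, and of Wnt9a but not Wnt4 in the wild type. Whether ectoderm in the samples bears on the Wnt rises was not tested.

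In the order of CPM both Wnt genes had E12.5 wild type first (43.6 ± 9.05 for Wnt4, 15.5 ± 4.32 for Wnt9a) and E12.5 knockout next (34.3 ± 4.84 and 11.97 ± 1.88), the neighbours overlapping with each other and not with the groups below. For Wnt4 the E9.5 and E11.5 groups formed 1 overlapping set between 18.5 ± 2.06 and 23.4 ± 1.65. For Wnt9a the E11.5 groups (6.67 ± 0.942 and 6.30 ± 0.743) lay above the E9.5 groups (2.93 ± 1.01 and 2.47 ± 1.23) without overlap.

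Erg encodes an ETS transcription factor of joint-forming cells and also of all endothelium. At E9.5 it measured 6.62, 8.30 and 5.65 RPKM in wild-type libraries and 5.67, 7.27 and 6.30 in the knockout. At E11.5 it was similar, with 8.01, 10.8 and 6.69 RPKM in wild-type libraries and 10.01, 7.34 and 5.86 in the knockout. By E12.5 every library had at least 20.6 RPKM, with 27.9, 32.4 and 36.8 in wild-type libraries and 20.6, 32.9 and 31.6 in the knockout. Genotypes overlapped at all stages (log2 -0.10 ± 0.18, -0.13 ± 0.23 and -0.19 ± 0.19, adjusted p = 0.999, 0.771 and 0.659, edgeR). Of the 7 genes Erg had the knockout to wild-type ratio closest to 1 at E12.5, 87.7%. Without wild-type replicate 3 it was Gdf6, with a log2 fold change of -0.064 against -0.084 for Erg.

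The E12.5 step of Erg was 3.62-fold in the wild type (log2 1.86 ± 0.25, adjusted p = 0.000752, edgeR) and 3.46-fold in the knockout (1.79 ± 0.25, adjusted p = 0.000408, edgeR), a difference of -0.066 ± 0.34 (adjusted p = 0.961, edgeR). In CPM the E12.5 groups (66.8 ± 9.39 and 58.7 ± 13.9) overlapped and lay above 1 overlapping set of the other groups, from 18.4 ± 4.55 in the E11.5 wild type to 14.6 ± 1.76 in the E9.5 knockout. Of 12 endothelial markers, none rose and 1 fell in the wild type (median log2 0.12), and 2 rose and 1 fell in the knockout (median 0.11). Their summed RPKM in the wild type was 146 to 175 at E11.5 and 160 to 185 at E12.5, with overlap. Among knockout libraries it was 143 to 156 and 164 to 172, with every E12.5 library above every E11.5 one. Fli1, the ETS factor related to Erg, fell in the wild type (-0.76 ± 0.15, adjusted p = 0.00276, edgeR). In the knockout Pecam1, an endothelial adhesion molecule, rose by 0.36 ± 0.10 (adjusted p = 0.0138, edgeR). The receptor gene Tie1 rose by 0.39 ± 0.13 and Fli1 fell by 0.40 there (adjusted p = 0.0283 and 0.0434, edgeR), and each of these calls was lost in several leave-one-out fits. At E9.5, where Erg overlapped with its E11.5 levels, the endothelial sums were 225 to 289 over the 6 libraries, above every hindlimb library. That tissue also held trunk, and RPKM was normalized within a stage. What part endothelium has in the Erg levels was not tested.

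**Figure D3:**
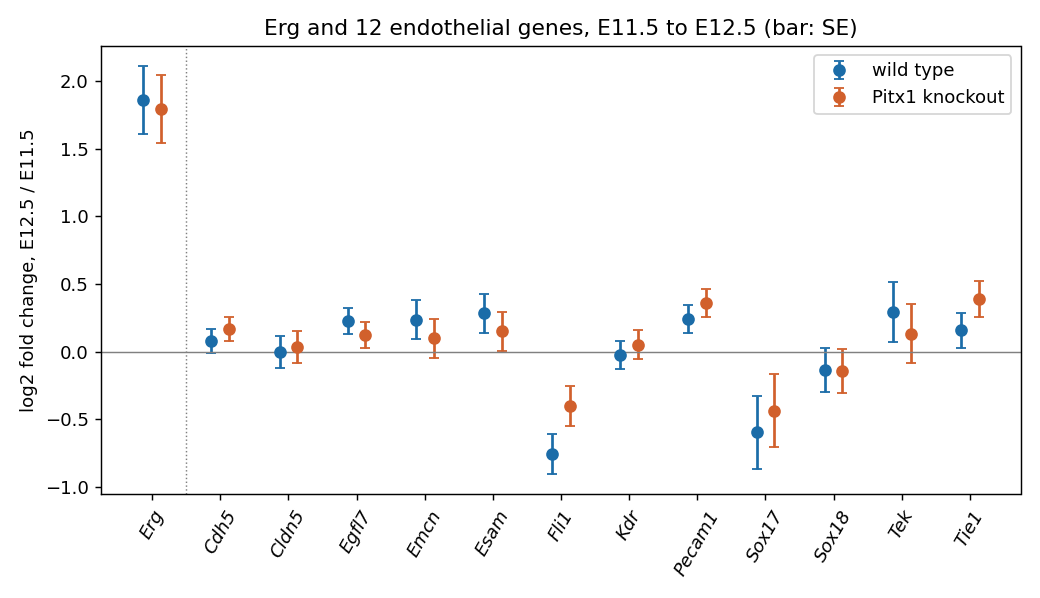
Log2 change from E11.5 to E12.5 (y axis) for Erg, left of the dotted line, and for 12 endothelial markers (x axis), in wild type and knockout; points are edgeR estimates and bars 1 SE. Erg lies near 1.8 in both genotypes, while the endothelial genes lie between -0.76 and 0.39.

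Enpp2 encodes autotaxin, the secreted enzyme that makes the lipid signal lysophosphatidic acid, and is expressed in the early joint. It measured 0.698, 1.78 and 0.399 RPKM in wild-type libraries and 1.67, 0.967 and 2.09 in the knockout at E9.5. At that stage neural tube, another site of Enpp2, was in the tissue: the summed RPKM of 11 neural tube markers was 49.7 to 106 in wild-type libraries and 50.4 to 122 in the knockout. All 11 had positive knockout fold changes (median log2 0.42, none called), as Enpp2 did (0.72 ± 0.53, adjusted p = 0.999, edgeR). So did 6649 of all 13785 genes tested. The part of neural tube in the Enpp2 levels was not tested. From E11.5 on the sum was at most 17.1 in every library, with at least 7 of the 11 markers under 0.1 RPKM in each group.

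At E11.5 Enpp2 had 7.71, 9.31 and 7.81 RPKM in wild-type libraries and 7.89, 8.18 and 7.95 in the knockout, the smallest genotype difference in the group (log2 -0.045 ± 0.10, adjusted p = 0.824, edgeR). At E12.5 the values were 16.4, 20.8 and 39.5 RPKM in wild-type libraries and 13.1, 17.7 and 20.3 in the knockout. Wild-type replicate 3 lay far above all 5 others, and the log2 fold change of -0.59 ± 0.37 (adjusted p = 0.491, edgeR) became -0.13 without it. Enpp2 rose 2.96-fold in the wild type (1.56 ± 0.29, adjusted p = 0.00325, edgeR), or by log2 1.10 without wild-type replicate 3. It rose 2.01-fold in the knockout (1.01 ± 0.29, adjusted p = 0.0186, edgeR). That knockout call was lost in 5 leave-one-out fits, without any 1 of the 3 E11.5 knockout libraries or of E12.5 knockout replicates 2 and 3 (adjusted p from 0.0502 to 0.0699). The difference between the genotypes' rises was -0.56 ± 0.40 (adjusted p = 0.659, edgeR). In CPM the E12.5 groups (86.0 ± 41.9 in the wild type, 57.2 ± 12.3 in the knockout) overlapped, as did the E11.5 groups (29.1 ± 3.17 and 28.2 ± 0.567) and the E9.5 groups (5.81 ± 2.08 in the knockout and 3.54 ± 2.69 in the wild type), and no stage overlapped with the next.

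**Figure D4:**
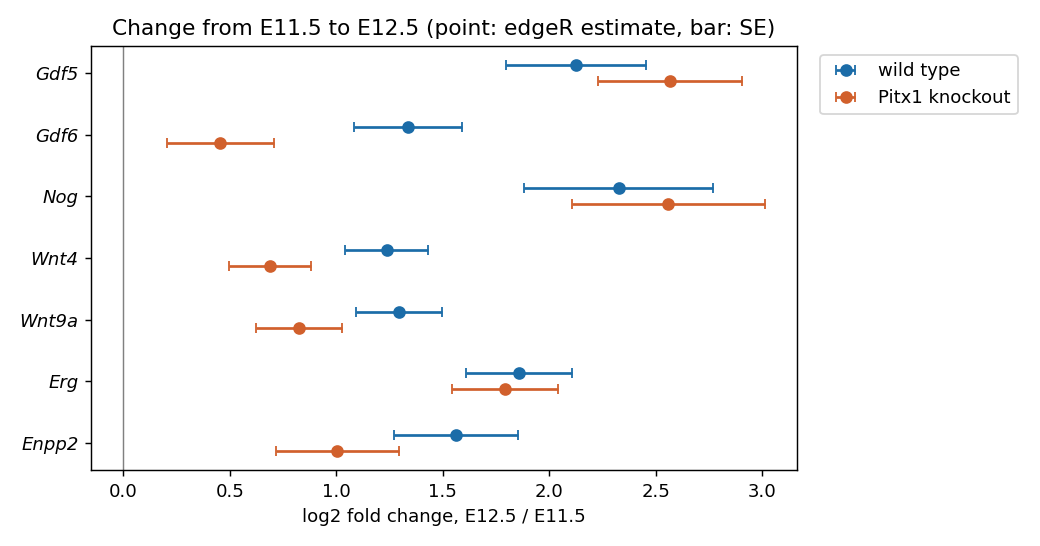
Log2 change from E11.5 to E12.5 (x axis) for each joint gene (rows) in wild type and knockout; points are edgeR estimates from the 12-library fit and bars 1 SE. Gdf5 and Nog have the largest changes in both genotypes, and Gdf6 in the knockout, at 0.46, is the 1 value that did not pass.

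At E12.5 all 7 joint genes had negative knockout fold changes, as 7255 of all 14475 genes tested did. Their median log2 was -0.42, against -0.00068 over all genes tested. The 7 signs held under each alternative run, all of which reuse these libraries. Without wild-type replicate 3 the median was -0.16. The log2 fold changes were then -0.85 for Gdf5 and -0.72 for Nog, while the others were -0.20 for Wnt4, -0.16 for Wnt9a, -0.13 for Enpp2, -0.084 for Erg and -0.064 for Gdf6. At E11.5, 4 were negative and 3 positive (median -0.045, all genes -0.012), and at E9.5, 2 were negative and 4 positive of 6 tested (median 0.042, all genes -0.0061). No single library set the size for every gene: Nog went to -0.39 and Erg to -0.0045 without knockout replicate 1. Gdf5 ranged from -0.95 to -0.80 over the libraries left out. These 7 signs are a count, and no test was made of them.

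Cartilage borders the interzone, and its genes also rose between the stages. Of 18 cartilage genes in the tables, 12 rose and none fell from E11.5 to E12.5 in the wild type (median log2 1.37), and 14 rose and none fell in the knockout (median 1.65). Col11a1, a cartilage collagen, rose by 1.01 ± 0.15 in the wild type (adjusted p = 0.000996, edgeR). Ihh, the hedgehog signal of maturing cartilage, rose by 4.22 ± 0.71, and Comp, a cartilage matrix gene, by 3.78 ± 0.67 (adjusted p = 0.00146 and 0.00163, edgeR). In the E11.5 knockout 4 of 17 tested cartilage genes fell and none rose (median -1.12). Sox9, the master regulator of cartilage, fell by 0.79 on the log2 scale (adjusted p = 0.0203, edgeR) and Col2a1, its main collagen target, by 1.12 (adjusted p = 0.0320, edgeR). The Sox9 call was lost in the fit of all 18 libraries (adjusted p = 0.278). Both calls were lost without E11.5 wild-type replicates 1 or 2 or knockout replicate 3, and that of Col2a1 also without knockout replicate 2. The 2 others were Lect1, which encodes chondromodulin (-3.07 ± 0.53, adjusted p = 0.0455, edgeR), and Matn1, a matrilin, with 225 wild-type and 6 knockout fragments over 3 libraries each (adjusted p = 0.0396, edgeR). The Matn1 call was lost without wild-type replicates 1 or 2 or knockout replicates 2 or 3, and that of Lect1 without wild-type replicates 1 or 2 or knockout replicate 3.

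At E12.5, 0 of 18 cartilage genes passed in edgeR, although 16 had negative fold changes (median -0.97), DESeq2 called 12 and 14 had an unadjusted p under 0.05. Sox9 was then at 94.3% and Col2a1 at 65.8% of the wild type (adjusted p = 0.891 and 0.160, edgeR), against 54.0% for Gdf5. Of the 18 cartilage genes, 11 had a lower log2 fold change than the -0.89 of Gdf5. Muscle markers, 6 in all, were also low in the E11.5 knockout, with a summed RPKM of 14.4 to 18.3 against 34.8 to 56.7, and 2 of them fell. At E12.5 the muscle sums overlapped, 79.6 to 134 against 99.3 to 128.

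The summed RPKM of the 18 cartilage genes, a list that holds no joint gene, separated the genotypes as Gdf5 did. It was 296 to 432 in wild-type and 157 to 232 in knockout libraries at E11.5, and 686 to 763 against 396 to 531 at E12.5. Within the E11.5 wild type the sum was highest in replicate 2 (432, against 339 and 296), which was also the highest library for 5 of the 7 joint genes. Within the E11.5 knockout it was highest in replicate 1 (232, against 157 and 179), again the highest for 5 of 7. Within the E12.5 knockout it was lowest in replicate 1 (396, against 504 and 531), the lowest library for 5 of 7. The E12.5 wild type did not follow this pattern. There the sum was highest in replicate 1 (763, against 686 and 701), which was the lowest library for 4 of the 7, while replicate 3 was the highest for 6. How many of all genes were highest or lowest in these libraries was not counted, so no share stands beside these counts. As a percentage of that sum, a measure chosen after the values were seen, Gdf5 was 2.45 to 3.45 in wild-type libraries and 1.60 to 2.83 in knockout libraries of E11.5, where the genotypes overlapped. At E12.5 it was 6.68, 6.51 and 7.36 in wild-type libraries and 5.89, 5.68 and 5.21 in the knockout (6.85 ± 0.450 and 5.59 ± 0.347), with no overlap. Nog was 1.43 ± 0.213 and 1.39 ± 0.277 percent of the cartilage sum at E12.5, with full overlap. What part the amount of cartilage has in the Gdf5 and Nog levels was not tested.

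**Figure D5:**
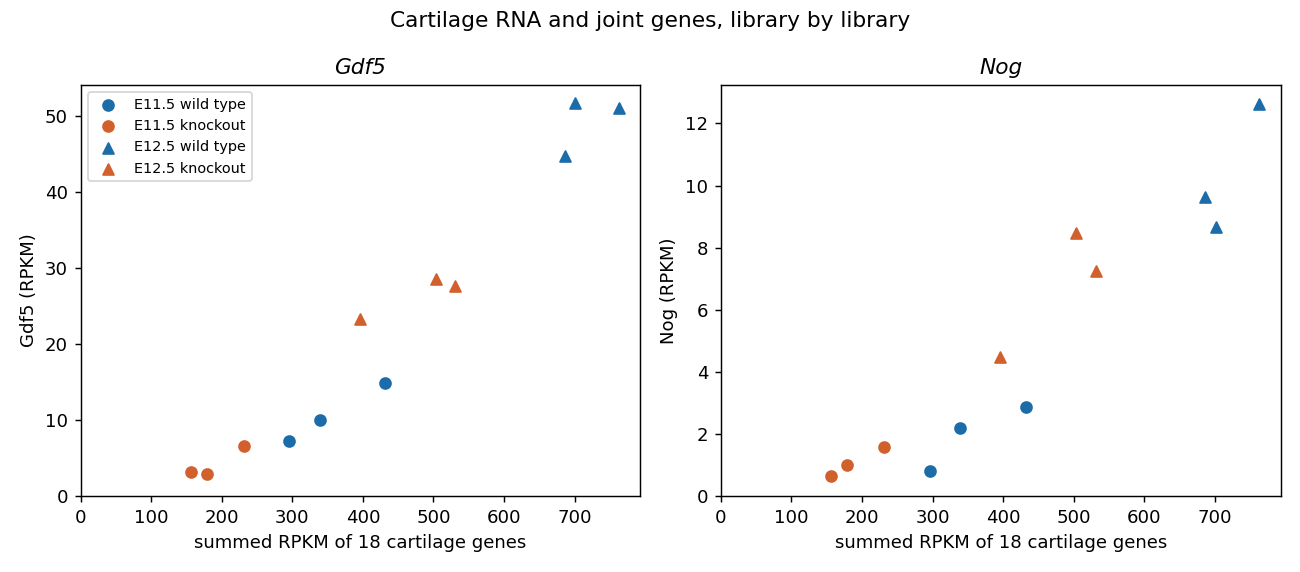
Gdf5 (left) and Nog (right) in RPKM (y axes) against the summed RPKM of 18 cartilage genes in the same library (x axis) for the 12 hindlimb libraries; each point is a library, colour gives genotype and shape gives stage. At each stage the wild-type libraries lie above and to the right of the knockout ones for Gdf5, from 2.87 RPKM in an E11.5 knockout library to 51.6 in an E12.5 wild-type one; for Nog the genotypes overlap in height at E11.5.

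The genes whose profiles over the 12 hindlimb libraries were most like that of Gdf5 were Col9a3 (root mean square difference 0.26 on the log2 scale), Chadl (0.31), Papss2 (0.31), Adamtsl1 (0.31) and Cybrd1 (0.31), among 12721 genes with a median of 1.41. Col9a3 encodes a cartilage collagen, Chadl a chondroadherin-like protein and Papss2 the enzyme that makes the sulphate donor for cartilage proteoglycans. Nog came in place 23 (0.40), Erg in place 156 (0.61), Enpp2 in place 581, Wnt9a in place 754, Wnt4 in place 883 and Gdf6 in place 1491 (1.11). Col2a1 was in place 413 and Sox9 in place 1796, both farther from Gdf5 than Nog and Erg were. The cartilage collagens Col9a3, in place 1, and Col9a2, in place 6, were nearer to Gdf5 than Nog and Erg.

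Nog was nearest to Creb5 (0.33), a transcription factor of articular cartilage, with Gdf5 in place 6. For Erg the nearest gene was Adamts9 (0.15), for Enpp2 Ptrf (0.15), for Gdf6 Cdkn2c (0.21), for Wnt4 Trp73 (0.16) and for Wnt9a Lgals1 (0.10). Wnt9a stood in place 8 for Wnt4 and Wnt4 in place 21 for Wnt9a (0.19), the smallest difference between any 2 joint genes. Such differences are not on the same scale for each gene, as their median was 0.60 for Wnt4 and 1.43 for Nog. These profiles share stage and depth, and the likeness is a description of these libraries only.

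Some of the other genes of the interzone rose as well. Of 16 tested joint companions, 8 rose and 1 fell in the wild type from E11.5 to E12.5 (median log2 0.69), and 9 rose and 1 fell in the knockout (median 0.55). Col3a1, a fibrillar collagen of connective tissue, rose by 1.08 ± 0.17 in the wild type (adjusted p = 0.00102, edgeR). Tgfbr2, the TGF-beta receptor of the interzone, rose by 1.25 ± 0.20 and Creb5 by 1.86 ± 0.40 (adjusted p = 0.00125 and 0.00584, edgeR). In the knockout Chrdl2, a chordin-like BMP inhibitor, rose by 3.89 ± 0.54 (adjusted p = 0.000207, edgeR). Creb5 rose by 2.75 ± 0.41 and Tgfbr2 by 1.16 ± 0.20 there (adjusted p = 0.000615 and 0.00105, edgeR). Between genotypes 1 of 16 passed at E11.5 and 0 at E12.5. At E12.5 DESeq2 called 3, and 7 had an unadjusted p under 0.05, as 15.1% of all genes did. Of these 7, 6 had negative fold changes and 1 a positive one. The E11.5 call was Col3a1 (-0.45 ± 0.082, adjusted p = 0.0302, edgeR). It measured 186, 206 and 180 RPKM in wild-type libraries and 141, 148 and 130 in the knockout. This call was lost without E11.5 wild-type replicates 1 or 2 or knockout replicate 3. Creb5, the gene nearest to Nog, lay at E12.5 at 8.39 ± 0.0739 RPKM in wild-type libraries and 8.54 ± 1.55 in the knockout (log2 0.028, adjusted p = 0.938, edgeR). At E11.5 its log2 fold change was -0.87 ± 0.48 (adjusted p = 0.332, edgeR), near the -0.85 of Nog. That nearness follows in part from the choice of Creb5 by its likeness to Nog over the same libraries.

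Receptors and transducers of the GDF and BMP signal changed in both directions between stages, as the genes tested did as a whole. Of 16, 4 rose and 3 fell in the wild type (median 0.096), and 3 rose and 3 fell in the knockout (median 0.021). Over all genes tested, 17% rose and 16.3% fell in the wild type, and 20.4% and 21.1% in the knockout. These counts do not set the list apart. Acvr2b, a type II receptor, fell in wild-type limbs (-1.01 ± 0.18, adjusted p = 0.00138, edgeR) and in knockout limbs by 0.64 on the log2 scale (adjusted p = 0.0108, edgeR). Smad9, a BMP signal transducer, rose by 1.66 ± 0.45 and 1.73 ± 0.45 (adjusted p = 0.0166 and 0.0103, edgeR). The knockout value was 2.62 without E11.5 knockout replicate 1, and the wild-type call was lost without E11.5 wild-type replicates 1 or 3 or E12.5 wild-type replicate 3. Bmpr1b, the preferred receptor of Gdf5, was at 6.64 ± 1.91 and 5.26 ± 0.776 RPKM in wild type and knockout at E11.5 and at 8.72 ± 1.57 and 10.3 ± 1.27 at E12.5 (SD, n = 3 each). Neither genotype difference passed (-0.33 ± 0.20 and 0.24 ± 0.14, adjusted p = 0.368 and 0.445, edgeR). At E12.5, where the ligand Gdf5 lay lower in every knockout library, the mean of its receptor lay higher, with overlapping libraries. At E11.5 the knockout means of both lay lower. Between the stages Bmpr1b rose in the knockout (0.89 ± 0.20, adjusted p = 0.00421, edgeR). Its wild-type change of 0.32 ± 0.20 did not pass (adjusted p = 0.227, edgeR), but did without E11.5 wild-type replicate 2 (0.59, adjusted p = 0.0178, edgeR). In edgeR the BMP target Id2 was the 1 gene of this list to pass between genotypes. DESeq2 called 2 at E11.5 and 1 at E12.5, and 0, 3 and 3 had an unadjusted p under 0.05 by stage. Id2 rose in the E11.5 knockout (0.41 ± 0.089, adjusted p = 0.0489, edgeR), a call lost without each library other than wild-type replicate 3.

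Most BMP inhibitors other than Nog rose too. Of 10, 6 rose and 1 fell in the wild type (median log2 0.97), and 7 rose and 1 fell in the knockout (median 1.14). Fstl1, a follistatin-like secreted protein, rose by 1.19 ± 0.14 in wild-type limbs and by 0.97 ± 0.14 in the knockout (adjusted p = 0.000341 and 0.000306, edgeR). The gene that fell in both was Grem1, the inhibitor that keeps the outgrowing limb bud active, by 1.58 and 2.21 on the log2 scale (adjusted p = 0.000430 and 6.98e-05, edgeR). None of the 10 passed between genotypes in edgeR, while 2, 4 and 2 had an unadjusted p under 0.05 by stage and DESeq2 called 0, 3 and 1.

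Wnt response genes did not rise as a group with the Wnt ligands. Of 10, 2 rose and 2 fell in the wild type (median 0.0087), and 3 rose and 2 fell in the knockout (median -0.080). Axin2, the general feedback target of Wnt signals, rose by 0.32 ± 0.085 and 0.31 ± 0.085 (adjusted p = 0.0115 and 0.00971, edgeR), calls lost without E12.5 wild-type and knockout replicate 2 respectively. Tcf7, a Wnt effector, fell by 0.83 and 0.63 (adjusted p = 0.000341 and 0.000449, edgeR). Of 8 tested lysophosphatidic acid receptors and phosphatases, 1 rose and 4 fell in wild-type limbs and 2 rose and 1 fell in the knockout. For both lists the shares over all genes were 17% higher and 16.3% lower in the wild type, and 20.4% and 21.1% in the knockout. Lpar6, a receptor, fell by 0.69 and 0.57 and Ppap2a, a phosphatase that degrades the signal, rose by 0.51 ± 0.093 and 0.47 ± 0.093 (adjusted p from 0.000435 to 0.00170, edgeR). None of these Wnt response and lysophosphatidic acid genes passed between genotypes in edgeR or DESeq2. At an unadjusted p under 0.05 there were 2 Wnt response genes at E9.5, 0 at E11.5 and 2 at E12.5, and 0 of the others.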

How the data were processed

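Poly(A) RNA of the hindlimb was sequenced per the labels' protocols (mirVana extraction, a stranded TruSeq mRNA kit, NextSeq). Cuffdiff, TopHat2 and FastQC are named with mouse build mm9, per the submitters' processing notes. For versions, annotation and use of strand the sources used here give nothing, so reads of overlapping antisense genes cannot be separated. The authors deposited 1 table per stage. Raw fragments in the deposited tables are estimated counts, of which 1.79% were not whole, and were rounded. Scaled fragments, a signal deposited beside them per the file headers, were not used. RPKM values, normalized by the authors within a table, give levels. Cuffdiff's replicates were taken in order as replicates 1 to 3. Of 23927 genes, 27 were left out because a library had no valid estimate or the name stood for 2 genes, and 23 names that had become dates were kept. No replicate pair agreed within sampling noise (lowest chi-square per degree of freedom 8.25).

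Genotypes were compared within a stage over 6 libraries, and stages and their interaction over the 12 hindlimb libraries, with edgeR 4.0.16 in R 4.3.3 (TMM, filterByExpr, robust quasi-likelihood F test, Benjamini-Hochberg adjustment over all genes tested, threshold 0.05). Standard errors (SE) were derived from the F statistic. CPM (fragments scaled to library size) used 1 TMM scaling of all libraries. Likeness is the root mean square difference between centred log2 profiles (prior count 2) among genes with 1 RPKM in a group. Alternatives were RLE factors, DESeq2 1.42.0, limma 3.58.1 on log2(RPKM + 1) or log2(RPKM + 0.1) for genotype, a minimum mean of 1 RPKM or no filter, a non-robust fit, the replicate number as a block, all 18 libraries and leaving out each library. The tests were also run on counts simulated from the model that they assume, a check that does not cover outlying libraries. Named genes are the 7 joint genes, Pitx1, Sox9, Col2a1 and Bmpr1b, up to 3 genes per list and comparison with the smallest adjusted p, and the nearest profiles. Lect1 and T were added to complete a count, and they and the genotype values of Creb5 were chosen after being seen. The 7 joint genes are defined by symbol alone, with no threshold on a measured value, but they and the lists were chosen with earlier results of these data known.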

Additional observations from a re-analysis of the deposited data

How the results depend on the processing

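Of 698 values of the 7 joint genes under an alternative, 668 kept direction and side of the threshold. The number of joint genes called between genotypes, 0 at each stage, stayed 0 at E9.5. At E11.5 it was 1 (Gdf5) with all 18 libraries and 0 to 1 in leave-one-out fits. At E12.5 it was 1 (Gdf5) with DESeq2, with no filter (adjusted p = 0.0109) and with the replicate block (adjusted p = 0.00907), and 0 to 1 in leave-one-out fits. The 7 wild-type rises, and 0 calls in the test of the difference, held under every alternative; of the knockout rises 4 to 6 passed in leave-one-out fits, with 4 (Gdf5, Nog, Wnt9a and Erg) without E12.5 knockout replicate 3. The cause of these moves was not tested.

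Some log2 fold changes, none past the threshold, changed sign in leave-one-out fits. At E9.5 these ranged from -0.17 to 0.35 for Gdf6, -0.061 to 0.22 for Nog, -0.63 to 0.078 for Wnt9a and -0.22 to 0.057 for Erg. At E11.5 they ranged from -0.033 to 0.18 for Wnt9a, -0.36 to 0.078 for Erg and -0.094 to 0.051 for Enpp2, and at E12.5 from -0.28 to 0.15 for Sox9. The difference of the genotype effect between stages ranged from -0.16 to 0.65 for Nog and -0.28 to 0.17 for Erg. Others moved by over 1.5 times with their sign unchanged. Enpp2 at E9.5 ranged from 0.36 to 1.499, Nog from -1.25 to -0.47 and Wnt4 from 0.029 to 0.37 at E11.5. At E12.5 the ranges were -0.58 to -0.064 for Gdf6, -0.81 to -0.39 for Nog, -0.50 to -0.20 for Wnt4, -0.56 to -0.16 for Wnt9a, -0.31 to -0.0045 for Erg and -0.83 to -0.13 for Enpp2. The difference between stages ranged from 0.12 to 0.92 for Gdf5, -1.08 to -0.53 for Gdf6, -0.65 to -0.25 for Wnt9a and -0.79 to -0.094 for Enpp2.

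Beside the leave-one-out losses given above, E11.5 genotype calls were lost with the replicate block for Matn1 (adjusted p = 0.0531), Lect1 (0.122), Col3a1 (0.0546), Id2 (0.0980) and T (0.0826), and that of Pitx1 at E9.5 (0.286). Limma lost Matn1 (0.0954), Col3a1 (0.0562 and 0.0529) and Id2 (0.0702 and 0.0661), no filter lost Lect1 (0.0586), the fit without the robust step lost Id2 (0.0631) and T (0.0542), and all 18 libraries lost Col3a1 (0.359) and T (0.119). The knockout fall of Fli1 was lost with the block (0.0675) and all 18 libraries (0.0641).

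Calls over all genes moved more. At E9.5 there were 3, with 19 by DESeq2, 0 with the replicate block or all 18 libraries, 1 or 2 with limma or without the robust step, and 0 to 2 in leave-one-out fits. At E11.5 there were 283, with 1278 by DESeq2, 521 without a filter, 99 with the block, 118 and 132 with limma, 693 with all 18 libraries and 9 to 640 in leave-one-out fits. At E12.5 there were 2, with 445 by DESeq2, 381 with the block, 5 without a filter, 4 and 5 with limma, 23 with all 18 libraries and 1 to 17 in leave-one-out fits. The difference between stages had 1, with 113 by DESeq2, 2 without a filter, 0 without the robust step or with all 18 libraries, and 0 to 5 in leave-one-out fits.

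The labels do not say whether replicate numbers pair libraries. Deviations of same-numbered wild-type and knockout libraries correlated at 0.021, -0.39 and -0.37 at E9.5 and at 0.043, -0.23 and 0.048 at E11.5. At E12.5 they correlated at 0.17, -0.027 and 0.23. Pairs with different numbers ran from -0.20 to 0.46 at E9.5, -0.36 to 0.31 at E11.5 and -0.22 to 0.055 at E12.5. Replicates 1 and 3 of E12.5 thus lay above every differently numbered pair of that stage. Whether libraries are paired cannot be settled from these values. With 3 libraries a group these tests are limited, and at E9.5 the 0 to 5 fragments of Gdf5 per library allow no comparison.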
